A study of Homo sapiens with 12 samples.

Results

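Chromosomes 4, 13 and 18 held 12411 of the 164693 HOXA13 ChIP-seq intervals in 4 deposited peak lists. ChIP-seq sequences the DNA that an antibody pulls down with its bound protein, and an interval is a stretch where the peak caller found more ChIP reads than it expected from input chromatin. Every interval that a list placed on chromosome 4, 13 or 18 was taken, with no limit on its strength. There were 2928 of 40657 intervals in HepG2 anti-HA, 5638 of 83156 in HepG2 anti-HOXA13, 2915 of 30170 in Huh7 anti-HA and 930 of 10710 in Huh7 anti-HOXA13. The other 19 autosomes held 31161, 65678, 25431 and 9316 intervals in the same order and serve as the comparison.

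HepG2 and Huh7 are liver-cancer cell lines, both labelled as derived from hepatocellular carcinoma. The anti-HA lists come from stably transfected HepG2 and Huh7 cells that carry HOXA13 with an HA epitope tag, immunoprecipitated with an antibody to the tag, and the anti-HOXA13 lists come from the same lines without the tagged construct, immunoprecipitated with an antibody to HOXA13. All cells were crosslinked with formaldehyde and their chromatin was sheared by sonication to about 200 bp. The labels do not say which promoter drove the tagged gene or whether the transfected cells were a pool or a clone. The series has 12 samples: for each of the 4 cell populations there is a ChIP, an input and a control precipitation with mouse IgG. Each list rests on 1 ChIP library and its matching input, and the IgG controls were not analysed here. With 1 library per condition no difference between conditions has a replicate check, and antibody, tag and library cannot be told apart.

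HOXA13 is a homeodomain transcription factor of the HOXA cluster that patterns the distal limb and the genitourinary tract of the embryo, and its homeodomain recognises AT-rich DNA. Gene-poor, AT-rich chromosomes tend to lie towards the edge of the nucleus, are rich in late-replicating, compact chromatin and hold long stretches without genes. Trisomies of chromosomes 13 and 18 are among the few autosomal trisomies that reach birth. Chromosome 13 is acrocentric, so its short arm is repeat sequence that a reference assembly leaves out.

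The description of the 3 chromosomes as gene-poor and AT-rich held in the RefSeq gene table, used only for these counts. That table gave 4.04 protein-coding genes per Mb on chromosome 4, 2.96 on chromosome 13 and 3.36 on chromosome 18. The other autosomes ran between 4.92 and 24.8 with a median of 6.05, so the 3 chromosomes were the lowest of the 22. The median AT content of the listed promoter windows was 46.7% on chromosome 4, 46.7% on chromosome 13 and 47.7% on chromosome 18, against 36.7% to 44.0% on the other autosomes with promoter windows in the table. Only promoters were measured, since no genome sequence of the lists' build was used here. For the same reason no gene is placed at an interval and no interval sequence is printed.

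Interval density was lower on chromosomes 4, 13 and 18 together than on the other autosomes in all 4 lists. Density is the number of intervals per Mb of covered length, which leaves out stretches of 1 Mb or more that hold no interval of any list, and comes to 358.9 Mb on the 3 chromosomes and 2339 Mb on the others. In HepG2 anti-HA the 3 chromosomes carried 8.16 intervals per Mb and the other autosomes 13.3, a ratio of 0.612 (95% interval 0.589 to 0.636). In HepG2 anti-HOXA13 they carried 15.7 and the other autosomes 28.1 per Mb, a ratio of 0.559 (0.544 to 0.575). In Huh7 anti-HA the values were 8.12 on the 3 chromosomes and 10.9 per Mb on the others, a ratio of 0.747 (0.719 to 0.776). In Huh7 anti-HOXA13 they were 2.59 on the 3 chromosomes and 3.98 per Mb on the others, a ratio of 0.650 (0.607 to 0.696). These and all later intervals are exact Poisson or binomial intervals that cover counting error only. They are too narrow as a measure of how far chromosomes vary, because intervals lay in clusters: over 1 Mb bins of the 3 chromosomes the variance of the count was 3.97 to 11.01 times its mean.

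The size of the deficit in HepG2 rested on a few dense chromosomes among the others. Chromosome 20 was the densest, at 38.3 and 119.5 intervals per Mb in HepG2 anti-HA and HepG2 anti-HOXA13, and chromosomes 2, 6, 14 and 16 were also dense. They did not form a class apart, since chromosome 21, which was kept among the others, was about as dense as chromosome 14, at 15.6 and 36.4 per Mb. Without those 5 chromosomes, a choice made after seeing the data, the ratio was 0.833 (0.800 to 0.866) in HepG2 anti-HA and 0.823 (0.800 to 0.847) in HepG2 anti-HOXA13. The same omission gave 0.770 in Huh7 anti-HA and 0.654 in Huh7 anti-HOXA13. All 4 ratios stayed below 1. Input depth of whole chromosomes cannot be read from peak lists and was not analysed here.

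**Figure D1:**
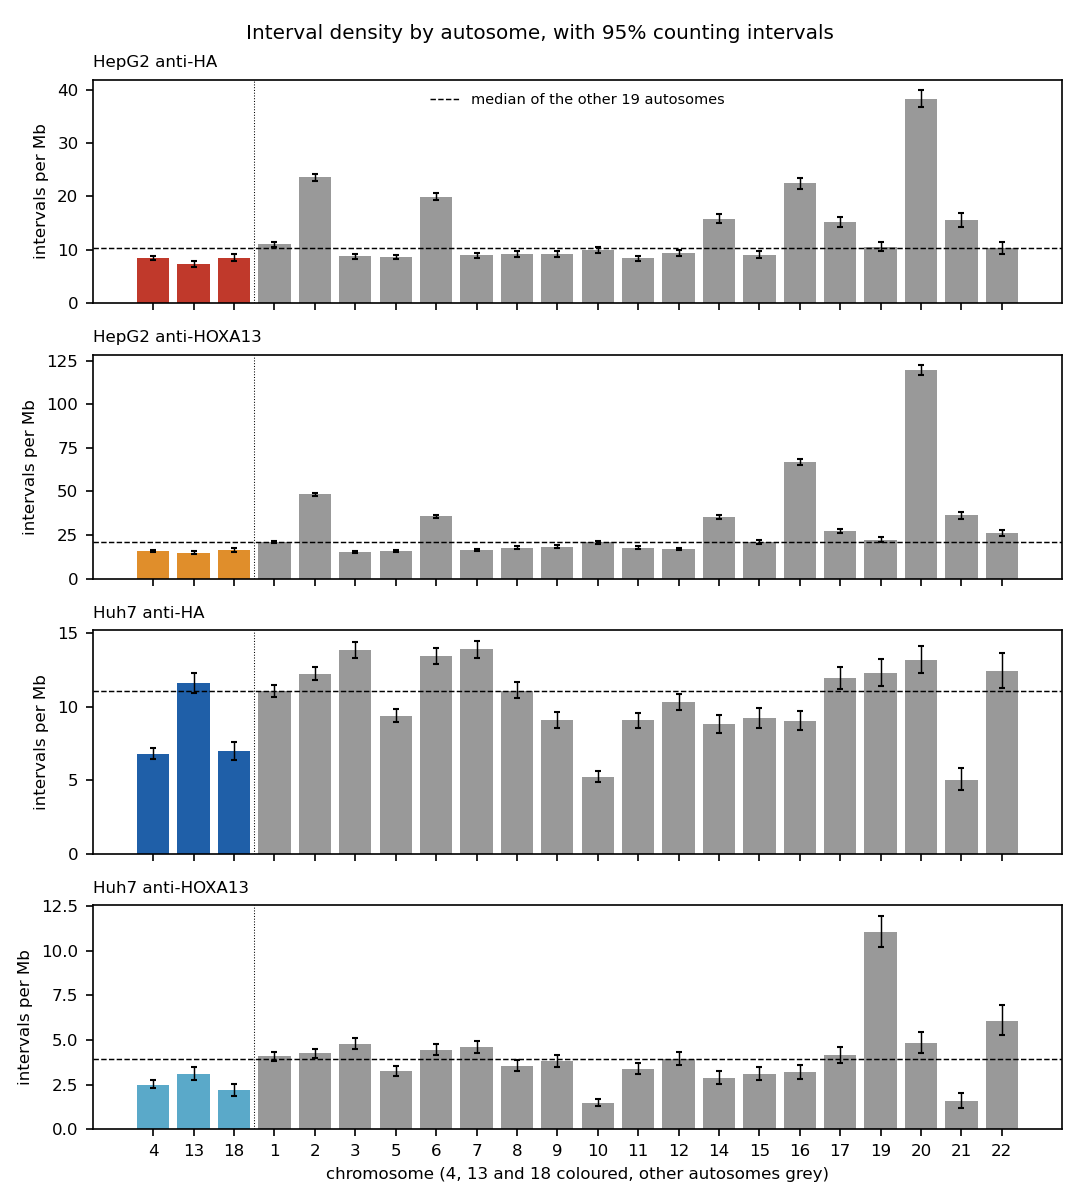
Intervals per Mb of covered length (vertical axis, linear) on each autosome in the 4 lists, with chromosomes 4, 13 and 18 coloured at the left and the other 19 autosomes in grey. Lines are 95% Poisson intervals and the dashed line is the median of the other autosomes; chromosome 13 in Huh7 anti-HA, at 11.6 per Mb, is the only coloured bar above it.

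The 3 chromosomes were alike in HepG2 and unlike in Huh7. In HepG2 anti-HA the density was 8.46 per Mb on chromosome 4, 7.29 on chromosome 13 and 8.51 on chromosome 18, which gave them ranks 3, 1 and 4 from the lowest of the 22 autosomes. Chromosome 11, with 9.63 protein-coding genes per Mb, lay below chromosomes 4 and 18 in that list, at 8.41. Chromosomes 5 and 3 followed at 8.68 and 8.76. In HepG2 anti-HOXA13 the density was 15.9 on chromosome 4, 14.9 on chromosome 13 and 16.3 on chromosome 18, at ranks 4, 1 and 5. Chromosomes 3 and 5 lay below chromosomes 4 and 18 there, at 15.3 and 15.5. Low density in HepG2 was therefore not confined to the 3 gene-poor chromosomes. In Huh7 anti-HA chromosomes 4 and 18 carried 6.81 and 6.97 per Mb, at ranks 3 and 4, while chromosome 13 carried 11.6, at rank 14. Chromosome 13 in that list was at 1.07 times the other autosomes (1.00 to 1.13). In Huh7 anti-HOXA13 the density was 2.50 per Mb on chromosome 4, 3.09 on chromosome 13 and 2.18 on chromosome 18, at ranks 4, 6 and 3. Chromosome 13 was thus the sparsest autosome in both HepG2 lists and the densest of the 3 in both Huh7 lists.

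The strong intervals of HepG2 anti-HA showed little of the deficit once those over raised input were set apart. A strong interval is one with a q, the false-discovery-adjusted p of the peak caller, of 1e-05 or less. On the 3 chromosomes 694 of 2928 intervals were strong in HepG2 anti-HA, or 23.7% against 21.2% of that list over all autosomes, and their density was 0.693 times that of the others (0.640 to 0.750). A further class separates intervals with raised input, where the expected pileup, the peak caller's estimate from input, was over 3 times the list's background level at the summit (the highest point). Strong intervals without raised input numbered 625 on the 3 chromosomes and 4343 on the others, or 1.74 and 1.86 per Mb, a ratio of 0.938 (0.861 to 1.02). Strong intervals with raised input numbered 69 on the 3 chromosomes and 2179 on the others, a ratio of 0.206 (0.160 to 0.262). Against the other autosomes without chromosomes 2, 6, 14, 16 and 20 these ratios were 0.917 (0.841 to 1.00) and 0.306 (0.236 to 0.391). In this list the shortfall was therefore deep among strong intervals over raised input and shallow among strong intervals without it. Weak intervals, those with q above 0.05, had a ratio of 0.539 (0.509 to 0.571). Against the reduced set of autosomes their ratio was 0.865 (0.814 to 0.918). Raised input was present in 10.2% of all HepG2 anti-HA intervals on the 3 chromosomes and 17.6% on the other autosomes (17.0% over all autosomes). In the other lists its share on the 3 chromosomes was 1.77%, against 1.45% on the others, for HepG2 anti-HOXA13 (1.48% over all autosomes). For Huh7 anti-HA it was 4.39% on the 3 chromosomes and 8.49% on the others (8.06%), and for Huh7 anti-HOXA13 5.70% on the 3 and 9.10% on the others (8.79%).

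The other 3 lists held few strong intervals on these chromosomes. HepG2 anti-HOXA13 had 31 of 5638 (0.550%, against 0.468% of the list over all autosomes), Huh7 anti-HA had 5 of 2915 (0.172%, against 0.374%) and Huh7 anti-HOXA13 had 22 of 930 (2.37%, against 2.60%). Without raised input there were 11, 3 and 21 of them on the 3 chromosomes and 61, 48 and 209 on the others. The density ratios were 1.18 (0.557 to 2.25), 0.407 (0.0811 to 1.26) and 0.655 (0.397 to 1.03), and these intervals all held 1. That of Huh7 anti-HOXA13 did not against the other autosomes without chromosomes 2, 6, 14, 16 and 20, at 0.567 (0.342 to 0.893). In Huh7 anti-HOXA13 the densest other autosome held 0.894 strong intervals without raised input per Mb, against a median of 0.0758. Against that median the ratio was 0.772, so the values of 0.655 and 0.567 depended partly on 1 dense autosome. With raised input kept, the density ratios of strong intervals lay below 1 in the 3 lists. They were 0.667 (0.445 to 0.966) for HepG2 anti-HOXA13, 0.323 (0.103 to 0.778) for Huh7 anti-HA and 0.588 (0.361 to 0.910) for Huh7 anti-HOXA13. Against the median autosome the last was 0.733. In HepG2 anti-HOXA13 chromosome 4 held 26 strong intervals, at 1.07 times the others (0.686 to 1.59). Chromosomes 13 and 18 held 2 and 3, at 0.161 and 0.309 times. Of the 26, 18 lay in 1 Mb beside the centromere, so the counting interval of the pooled ratio is too narrow. Without raised input chromosome 4 held 9 of the 11. Of the HepG2 anti-HOXA13 strong intervals, 20 of 31 lay over raised input on the 3 chromosomes (64.5%, against 78.4% over all autosomes). The counts in Huh7 were 2 of 5 in anti-HA (51.9% over all autosomes) and 1 of 22 in anti-HOXA13 (13.5%), and in HepG2 anti-HA 69 of 694 (9.94%, against 31.2%). At the looser limit of q of 0.05 or less, 56.0% of HepG2 anti-HA intervals on the 3 chromosomes passed (50.6% over all autosomes), 8.74% of HepG2 anti-HOXA13 (9.90%), 5.52% of Huh7 anti-HA (6.61%) and 9.25% of Huh7 anti-HOXA13 (9.37%). Most members of the other 3 lists thus failed even that limit.

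**Figure D2:**
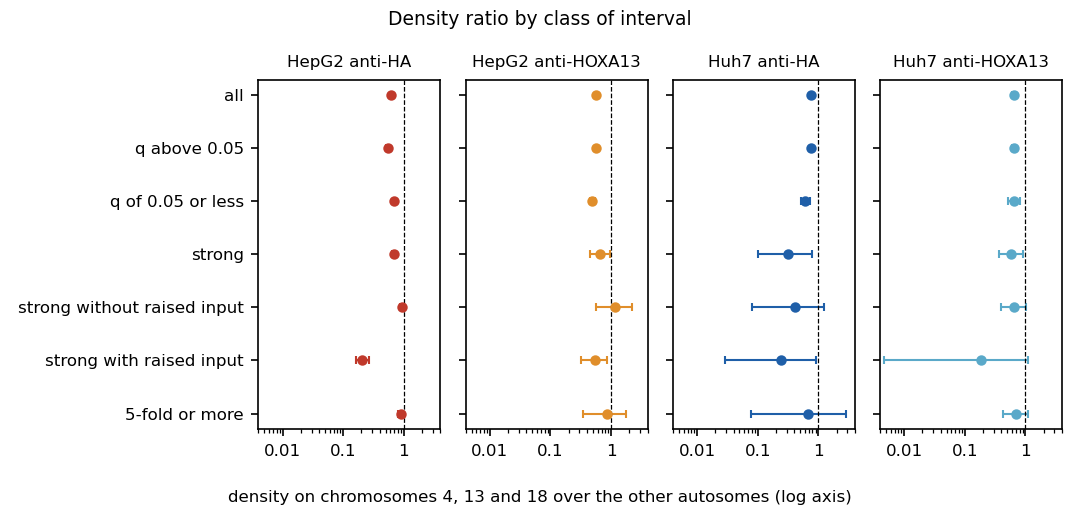
Density on chromosomes 4, 13 and 18 divided by density on the other autosomes (horizontal log axis) for 7 classes of interval in each list; points are ratios, lines 95% intervals and the dashed line marks 1. In HepG2 anti-HA the class of strong intervals without raised input sits at 0.938 and that with raised input at 0.206.

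Intervals on the 3 chromosomes were about as wide and as high as elsewhere. Height is given as the fold at the summit, that is the ChIP pileup over the expected pileup after 1 is added to each. In HepG2 anti-HA the median width was 199 bp on the 3 chromosomes and 195 bp on the others, and the median fold 3.04 and 2.82. In HepG2 anti-HOXA13 the median width was 121 bp on the 3 chromosomes and 130 bp on the others, and the median fold 2.67 and 2.85. In Huh7 anti-HA the widths were 145 and 148 bp and the folds 2.63 and 2.57, again with the 3 chromosomes before the others. In Huh7 anti-HOXA13 the widths were 157 and 159 bp and the folds 2.76 and 2.69. The median summit on the 3 chromosomes held 14, 7, 10 and 14 ChIP fragments in the 4 lists, so the typical member rests on few reads.

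High intervals made up a larger share of HepG2 anti-HA on these chromosomes, at a slightly lower density than elsewhere. A fold of 5 or more was reached by 440 of 2928 intervals, or 15.0%, against 10.8% over all autosomes. Per Mb that was 1.23 on the 3 chromosomes and 1.39 on the others, a ratio of 0.881 (0.796 to 0.974). A fold from 10 to 20 was found for 113 intervals (3.86%) on the 3 chromosomes and 648 (2.08%) on the others, and a fold of 20 or more for 9 (0.307%, 0.141% to 0.583%) and 63 (0.202%, 0.155% to 0.259%). In the other lists 8 intervals of HepG2 anti-HOXA13 (0.142%, against 0.0982% over all autosomes), 2 of Huh7 anti-HA (0.0686%, against 0.0741%) and 20 of Huh7 anti-HOXA13 (2.15%, against 2.01%) reached 5-fold. None of the members of these 3 lists reached 20-fold.

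The highest members of HepG2 anti-HA were broad, and most met no interval of another list. Coordinates are those of the GRCh37 assembly, counted from 1. The highest of all was chr4:56435018-56435652, on the long arm, at 41.4-fold (35.1 to 48.6) from 149 ChIP fragments over an expected 2.62. The next on chromosome 4 were chr4:54321878-54322489 at 29.5-fold and chr4:69899940-69900594 at 29.0-fold. Of these 3, only chr4:54321878-54322489 met an interval of another list, with 3.60-fold in Huh7 anti-HA. On chromosome 13 the highest were chr13:49945998-49946693 at 27.7-fold, chr13:74025448-74026025 at 24.4-fold and chr13:95752711-95753271 at 19.5-fold. On chromosome 18 they were chr18:19759101-19759786 at 24.2-fold, chr18:47437700-47438182 at 21.9-fold and chr18:36924226-36925086 at 20.3-fold. Those 6 intervals met none of the other 3 lists.

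The highest members of the other lists were narrower and much lower. In HepG2 anti-HOXA13 the leading interval on chromosome 4 was chr4:49093961-49094197, at 5.92-fold over raised input, and the next 2 at 5.78-fold and 5.54-fold also lay beside the centromere gap. On chromosome 18 the leading interval of that list, chr18:18516036-18516185 at 6.12-fold (3.80 to 9.38), lay just past the centromere gap on the long arm. Huh7 anti-HA led with chr4:10836173-10836383 at 5.14-fold, chr13:110228822-110229037 at 4.71-fold and chr18:71984108-71984325 at 5.12-fold. Huh7 anti-HOXA13 led with chr13:59523832-59524124 at 10.4-fold (7.68 to 13.9) from 45 ChIP fragments, chr4:116936260-116936519 at 7.27-fold and chr18:11544143-11544372 at 6.53-fold. Over the 3 highest intervals of each list on each chromosome, 31 of 36 met no other list and 5 did. Of all regions formed by merging the 4 lists on these chromosomes, 97.0% were in 1 list. Meeting no other list was therefore not particular to the highest intervals.

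The arms of chromosome 4 differed in 3 of the 4 lists. The short arm carried 23.5 and the long arm 13.1 intervals per Mb in HepG2 anti-HOXA13, a ratio of 1.79 (1.66 to 1.93). In Huh7 anti-HA the short arm carried 11.7 and the long arm 5.04 per Mb, a ratio of 2.33 (2.08 to 2.61), and in Huh7 anti-HOXA13 4.65 and 1.73 per Mb, a ratio of 2.69 (2.24 to 3.24). In HepG2 anti-HA the arms were level at 8.54 and 8.43 per Mb, a ratio of 1.01 (0.904 to 1.13). Set beside the 17 autosomes with both arms covered, the arm contrast of chromosome 4 was the highest in HepG2 anti-HOXA13 and ranked 2 in Huh7 anti-HOXA13, 5 in Huh7 anti-HA and 16 in HepG2 anti-HA. On chromosome 18 the short arm was denser in HepG2, at 1.43 times the long arm (1.20 to 1.71) in anti-HA and 1.38 times (1.21 to 1.57) in anti-HOXA13. The intervals for Huh7 held 1 on chromosome 18, at 1.07 (0.861 to 1.32) in anti-HA and 1.22 (0.827 to 1.76) in anti-HOXA13. Chromosome 13 has only its long arm in the lists.

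A narrow cluster on the short-arm side of the chromosome 4 centromere carried most strong HepG2 anti-HOXA13 intervals of that chromosome. The gap without intervals ran over chr4:49659240-52661139, and the 1 Mb before it, chr4:48659240-49659239, held 193 intervals of this list, 18 of them strong of the 26 strong on the chromosome. The same 1 Mb held 54 intervals in HepG2 anti-HA, 6 in Huh7 anti-HA and 5 in Huh7 anti-HOXA13. Raised input was present at 43 of the 193 HepG2 anti-HOXA13 intervals and at 16 of the 54 HepG2 anti-HA intervals. The part of raised input in this cluster was not tested. With 1 Mb on each side of the gap left out, the arm ratio in HepG2 anti-HOXA13 was 1.54 (1.42 to 1.67), and chromosome 4 held 6 strong intervals outside both flanks. The first 10 Mb of the short arm held 417 intervals of this list, 2.89 times the rest of the chromosome (2.60 to 3.21). Windows from 10 to 20, 20 to 30 and 30 to 40 Mb stood at 1.06, 0.968 and 0.758 times the rest. The arm contrast of this list therefore lay mainly at the ends of the short arm and does not describe the whole arm. In the first 10 Mb the ratio was 1.64 in HepG2 anti-HA, 1.56 in Huh7 anti-HA and 3.88 in Huh7 anti-HOXA13. Around the chromosome 18 gap, chr18:15379589-18510965, the 1 Mb before it held 3 and 18 intervals in HepG2 anti-HA and anti-HOXA13 and 2 and 0 in Huh7. The 1 Mb after it held 13 and 19 in HepG2 and 32 and 10 in Huh7, where the whole chromosome carried 6.97 per Mb with anti-HA and 2.18 with anti-HOXA13.

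**Figure D3:**
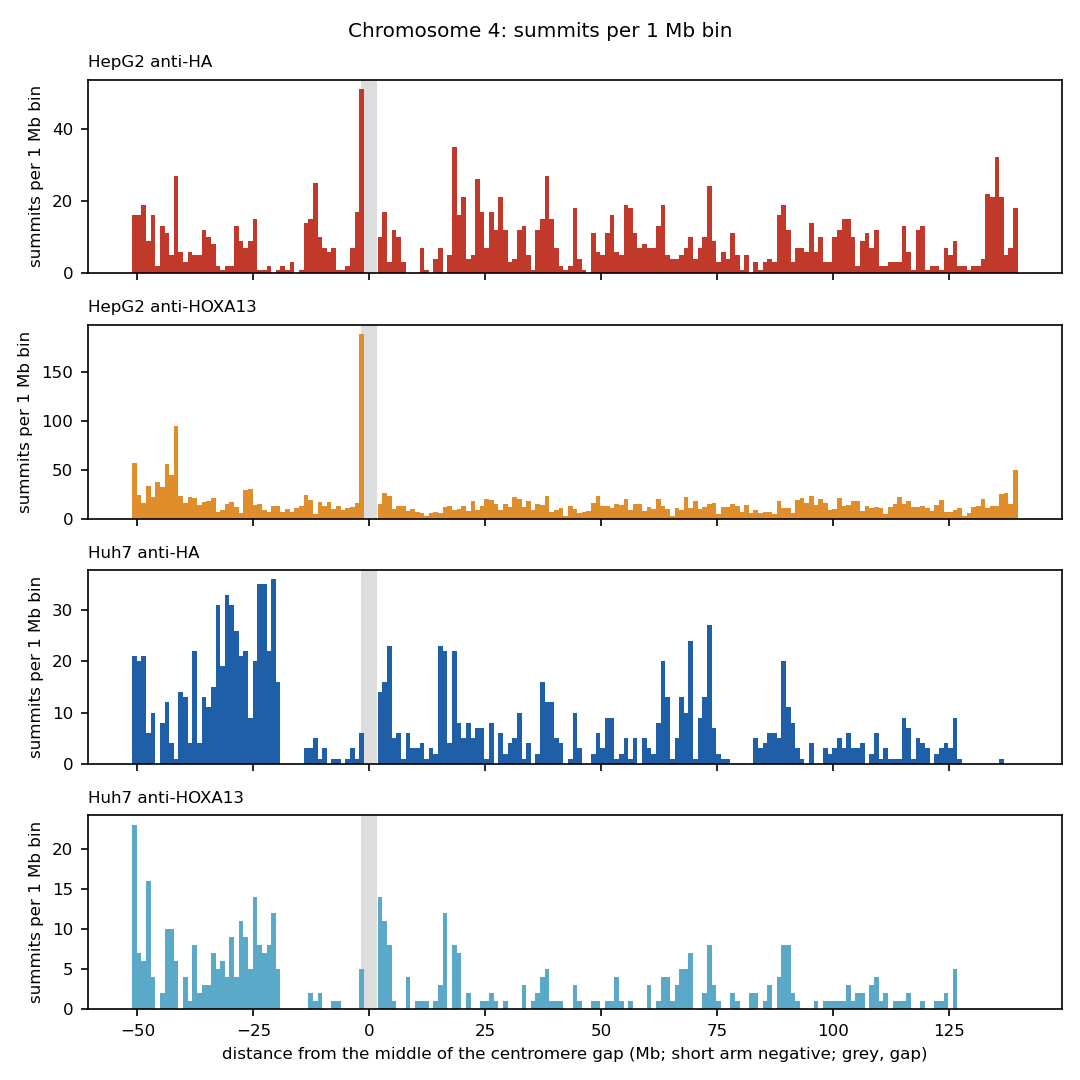
Summits per 1 Mb bin along chromosome 4 (vertical axis, linear, own scale for each list) against distance in Mb from the middle of the centromere gap, short arm negative and gap in grey. HepG2 anti-HOXA13 peaks at 189 in the bin before the gap, while the Huh7 lists are dense between about 30 and 20 Mb before it and nearly empty at the end of the long arm.

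Within the short arm of chromosome 4 the Huh7 lists showed a dense block followed by a stretch with no interval. From 20 to 30 Mb, Huh7 anti-HA carried 254 intervals, 25.4 per Mb and 4.41 times the rest of the chromosome (3.83 to 5.06). Huh7 anti-HOXA13 carried 79 there, 3.60 times the rest (2.79 to 4.59). Raised input was present at 18 of the 254 and 7 of the 79, beside 92 of 1280 and 42 of 470 on the whole chromosome. The median expected pileup was 3.88 and 4.00 in the window, against 3.29 and 3.27 on the whole chromosome. The part of input in this block was not tested. HepG2 anti-HA carried 61 and HepG2 anti-HOXA13 154 in the same window, 0.710 (0.540 to 0.917) and 0.968 (0.817 to 1.14) times the rest. Huh7 intervals were then missing from both lists over chr4:31633994-37426357, a stretch of 5.79 Mb. HepG2 anti-HA was also sparse there, with 9 intervals or 1.55 per Mb against 8.46 per Mb on the whole chromosome, and HepG2 anti-HOXA13 held 65, or 11.2 per Mb against 15.9. The fullest bin of Huh7 anti-HA on chromosome 4, from 30 to 31 Mb with 36 intervals, lay shortly before that stretch and held none of HepG2 anti-HA.

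The end of the long arm of chromosome 4 was nearly empty in Huh7 and filled in HepG2, though unevenly with anti-HA. From chr4:178303212 to the last covered base at 191043577, a length of 12.7 Mb, each Huh7 list held 1 interval. They were chr4:187026207-187026350 at 2.77-fold in anti-HA and chr4:191041534-191041719 at 2.96-fold in anti-HOXA13, and neither reached q of 0.05. HepG2 anti-HA held 143 intervals there, 29 of them strong, and HepG2 anti-HOXA13 held 226, none strong. The density in this stretch was 0.0108 times that of the rest of chromosome 4 in Huh7 anti-HA (0.000272 to 0.0600) and 0.0293 times in Huh7 anti-HOXA13 (0.000741 to 0.164). In HepG2 the ratio was 1.36 (1.14 to 1.61) in anti-HA and 1.13 (0.979 to 1.29) in anti-HOXA13. The anti-HA ratio above 1 rested on the 1 Mb bins from 184 to 188 Mb, with 21 to 32 intervals each. Bins from 178 to 184 Mb held 1 to 4 each, so that part was sparse in HepG2 anti-HA too. The highest HepG2 anti-HA interval in the stretch was chr4:184021922-184022526 at 18.4-fold from 156 ChIP fragments, followed by chr4:184686203-184686680 at 16.3-fold. The stretch was chosen after its values were seen. Input coverage of the stretch in Huh7 cannot be read from peak lists and was not analysed here.

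Stretches of 3 Mb or more without an interval in either list of a line occurred in Huh7. None could occur in HepG2, because HepG2 anti-HOXA13, with 83156 intervals, left no 1 Mb bin empty on any autosome. The lines are therefore not compared on this measure. On chromosomes 4, 13 and 18 there were 5 in Huh7, which summed to 25.2 Mb or 7.03% of the covered length, against 9 with 36.7 Mb or 1.57% on the other autosomes. Besides those above they were chr4:96060906-99662178 and chr18:4455195-7567677. Chromosome 13 had none in Huh7.

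At 60 to 70 Mb of chromosome 13 the cell lines went opposite ways. Huh7 anti-HA carried 243 intervals in that window, 24.3 per Mb and 2.40 times the rest of the chromosome (2.08 to 2.77), and Huh7 anti-HOXA13 carried 58, 2.09 times the rest (1.54 to 2.79). HepG2 anti-HA carried 23, or 0.292 times the rest (0.184 to 0.442), and HepG2 anti-HOXA13 89, or 0.572 times the rest (0.456 to 0.709). The fullest bin of chromosome 13 in both Huh7 lists, from 65 to 66 Mb, held 42 intervals in anti-HA and 13 in anti-HOXA13, beside 3 in HepG2 anti-HA and 4 in HepG2 anti-HOXA13. None of the 42 was strong and their median fold was 2.56, so the block was made of many low intervals. Raised input was present at 3 of the 243 Huh7 anti-HA intervals in the window and at none of the 58. That class does not register smaller rises. In Huh7 the window's median expected pileup was 3.35 with anti-HA and 3.60 with anti-HOXA13, against 3.11 and 3.07 on the whole chromosome. In HepG2 it was 2.62 with anti-HA, against 3.42, and 1.73 with anti-HOXA13 in both. The part of input in this block was not tested. From 100 to 110 Mb both Huh7 lists were sparse, with 33 in anti-HA, 0.263 times the rest (0.180 to 0.371), and 11 in anti-HOXA13, 0.331 times the rest (0.163 to 0.601). Past 110 Mb HepG2 anti-HOXA13 reached 32.9 per Mb, 2.38 times the rest (2.01 to 2.79), while HepG2 anti-HA stood at 8.82 per Mb, 1.22 times the rest (0.885 to 1.66).

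**Figure D4:**
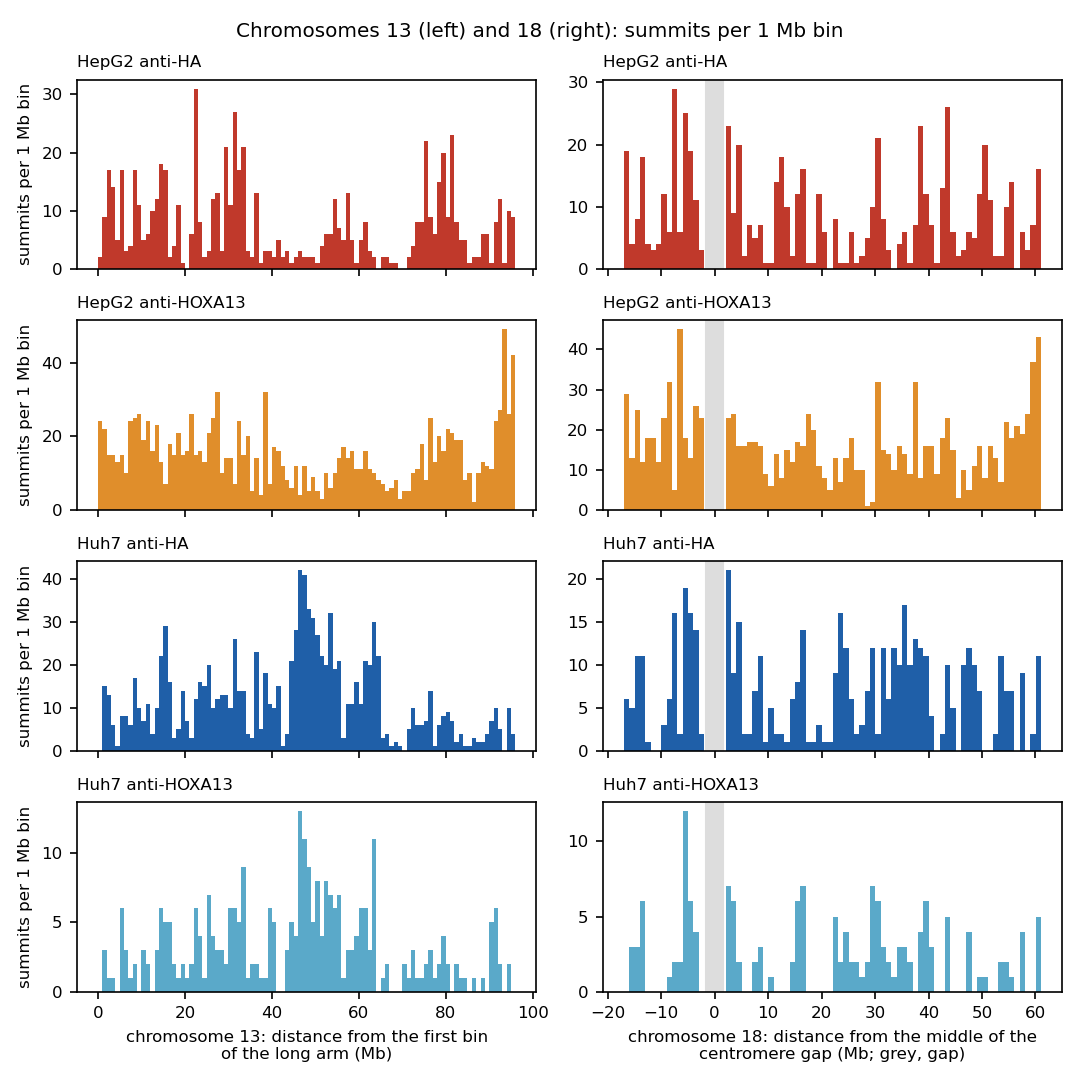
Summits per 1 Mb bin (vertical axes, linear, own scale for each panel) along chromosome 13, left, against distance in Mb from the first bin of its long arm, and along chromosome 18, right, against distance from the middle of its centromere gap (grey). The Huh7 lists are highest on chromosome 13 near 46 Mb from the first bin, with 42 and 13 summits, where the HepG2 lists hold 3 and 4.

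No window of chromosome 18 divided the cell lines in this way. All 4 lists were denser than the rest of the chromosome at 10 to 20 Mb, the window that spans the centromere gap. The ratios there were 1.74 (1.38 to 2.16) in HepG2 anti-HA, 1.61 (1.36 to 1.89) in HepG2 anti-HOXA13, 2.04 (1.60 to 2.56) in Huh7 anti-HA and 2.81 (1.88 to 4.09) in Huh7 anti-HOXA13. The end of the long arm, from 70 Mb, was denser only in HepG2 anti-HOXA13, at 23.9 per Mb and 1.55 times the rest (1.32 to 1.81).

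The fullest bins of the other lists differed in how far the lists shared them. From 9 to 10 Mb on chromosome 18, HepG2 anti-HA held 29 intervals, 11 of them strong, beside 5 in HepG2 anti-HOXA13, 16 in Huh7 anti-HA and 2 in Huh7 anti-HOXA13. From 112 to 113 Mb on chromosome 13, HepG2 anti-HOXA13 held 49, none strong and none over raised input, beside 1 in HepG2 anti-HA and none in either Huh7 list. The first Mb of chromosome 4 was filled in all 4, with 16 anti-HA and 57 anti-HOXA13 intervals of HepG2 and 21 anti-HA and 23 anti-HOXA13 intervals of Huh7. Height varied most between bins in HepG2 anti-HA: over bins with 5 or more intervals, the median fold of a bin ran from 2.39 to 5.83 in that list, from 2.26 to 3.48 in the other HepG2 list, and in Huh7 from 1.65 to 3.24 with anti-HA and from 1.75 to 3.55 with anti-HOXA13.

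Bins with no interval were more frequent on the 3 chromosomes than on the others in 3 lists. Of 358 bins of 1 Mb, 16 were empty in HepG2 anti-HA (4.47%, against 1.84% of the other autosomes' bins), 46 in Huh7 anti-HA (12.8%, against 6.80%) and 114 in Huh7 anti-HOXA13 (31.8%, against 16.5%). HepG2 anti-HOXA13, the longest list, had none empty in either group. Chromosome 4 contributed 35 and 69 of the empty bins in Huh7 anti-HA and Huh7 anti-HOXA13.

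Bin counts followed the cell line more than the antibody. Over the 358 bins, the Huh7 lists correlated with r of 0.70 and rho of 0.73, and the HepG2 lists with r of 0.39 and rho of 0.37. Across the lines r ran from -0.04 to 0.20, with 0.11 between the anti-HA lists and 0.15 between the anti-HOXA13 lists. Bins are neighbours on the same chromosomes, and all bins of a list come from the same ChIP library and input, so these coefficients are descriptions. Chromosome 18 was an exception: HepG2 anti-HA correlated there at r of 0.50 with Huh7 anti-HOXA13 and at 0.17 with HepG2 anti-HOXA13, over 74 bins. On chromosome 13 HepG2 anti-HOXA13 correlated negatively with both Huh7 lists, at r of -0.22 with anti-HA and -0.24 with anti-HOXA13 over 96 bins. By rho the same pairs were weaker, at -0.08 and -0.15.

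The similarity of the Huh7 lists at 1 Mb did not extend to single intervals. Only 20 of 2915 Huh7 anti-HA intervals on the 3 chromosomes overlapped a Huh7 anti-HOXA13 interval by 1 bp or more, or 0.686% (0.631% over all autosomes), and 20 of 930 in the other direction, or 2.15% (1.75%). In HepG2, 90 of 2928 anti-HA intervals overlapped an anti-HOXA13 interval, or 3.07% (4.24%), and 95 of 5638 in the other direction, or 1.68% (2.04%). On the other autosomes the HepG2 anti-HA share was 4.35%, above the interval for the 3 chromosomes of 2.48% to 3.77%. Within the 3 it was 4.34% on chromosome 4, 1.43% on chromosome 13 and 1.73% on chromosome 18. The largest overlap was between the anti-HA lists of the 2 lines, with 197 HepG2 anti-HA intervals, or 6.73% (6.98%), and 200 Huh7 anti-HA intervals, or 6.86% (8.71%). These shares depended on intervals with raised input. With them left out of both lists, the share of HepG2 anti-HA intervals that met Huh7 anti-HA was 4.64% (3.87% to 5.51%) on the 3 chromosomes and 3.59% on the other autosomes, and the share of Huh7 anti-HA intervals that met HepG2 anti-HA was 4.41% (3.68% to 5.24%) on the 3 and 4.04% on the others. The share of HepG2 anti-HA intervals that met HepG2 anti-HOXA13 was then 1.79% on the 3 chromosomes and 3.52% on the others. The anti-HOXA13 lists of the lines shared 23 HepG2 intervals, or 0.408% (0.352%), and 22 Huh7 intervals, or 2.37% (2.40%). Across both line and antibody, HepG2 anti-HA shared 12 intervals with Huh7 anti-HOXA13, or 0.410% (0.625%), which were 12 of the Huh7 list, or 1.29% (2.09%). Huh7 anti-HA shared 28 with HepG2 anti-HOXA13, or 0.961% (1.39%), and 29 of the HepG2 list met them, or 0.514% (0.508%).

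Merged over the 4 lists, the intervals of the 3 chromosomes formed 12036 regions, of which 11679 were in 1 list (97.0%), 351 in 2 lists (2.92%), 6 in 3 lists and none in all 4. The 127152 regions of the other autosomes divided much the same way, with 96.8% in 1 list and 3.07% in 2 lists. Regions in 3 lists made up 0.0499% (0.0183% to 0.108%) on the 3 chromosomes and 0.133% on the other autosomes, where 2 regions were in all 4. The most frequent pair was anti-HA in both lines, with 193 regions. Its leading region by mean rank of fold was chr18:9736799-9737272, on the short arm, at 17.6-fold in the HepG2 list and 4.75-fold in the Huh7 list. It was followed by chr13:42222478-42222996, with 18.6-fold in HepG2 against 4.06-fold in Huh7, and by the region at chr4:54321878-54322489. None of these 3 had raised input in either list. The leading region of the 20 shared by the anti-HOXA13 lists alone was chr4:436292-437921, near the end of the short arm, with 4.91-fold in the HepG2 list and 5.80-fold in the Huh7 list. For the pair of HepG2 lists it was chr13:97578171-97578552, with 5.63-fold in anti-HA and 3.67-fold in anti-HOXA13. For the pair of Huh7 lists it was chr4:126736745-126736885, with 3.60-fold in anti-HA and 4.34-fold in anti-HOXA13. The region chr18:47951434-47952036 led the 10 shared by HepG2 anti-HA and Huh7 anti-HOXA13 alone, at 10.5-fold and 4.33-fold. Of the 6 regions in 3 lists, 5 had raised input in at least 1 list and 3 lay on chromosome 4 within 1 Mb of the centromere gap.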

How the data were processed

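Each deposited peak list was called on 1 ChIP library against input. Per the submitters' processing notes, BWA aligned the reads and MACS2 called the peaks, with no version or setting named. The labels state the same read number for every sample, and the precision of each value comes from the interval and fragment counts printed. The notes give GRCh38 as the build, but sequence names such as a decoy mark the lists as GRCh37, so coordinates are printed as GRCh37 and none was converted. The authors' deposited fold is a ratio of ChIP to expected pileup at the summit, and the deposited −log10 p and −log10 q values describe that same point. The lowest deposited −log10 p was 2.00, so the lists were limited at p of 0.01. The deposited score is 10 times −log10 p and was not used further. The last deposited column holds another whole number, the summit's distance from the interval start. All values per interval are the authors'.

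ChIP fragments and expected pileup were solved from fold and p with MACS2's published formulas (tolerance 0.001), which worked for every member interval. The ChIP was scaled by 0.812 in Huh7 anti-HOXA13 and by 1 in the others. The background expected pileup was 2.62, 1.73, 2.61 and 2.60 in HepG2 anti-HA, HepG2 anti-HOXA13, Huh7 anti-HA and Huh7 anti-HOXA13. On simulated data the solver recovered 100% of summits with an unscaled ChIP and 99.98% with a scaled one, and 95.7% of density-ratio intervals held the planted ratio. Those simulated counts were Poisson draws without the clustering of the real counts. That share therefore checks the calculation and does not describe coverage on these lists. An interval belongs to the bin, arm or window of its summit, and windows of 10 Mb with little covered length were left out. Gene and promoter counts come from RefSeq tables of GRCh38.p14, on their own coordinates. Intervals were named by rank: the 3 highest by fold per list and chromosome, and the leading shared regions. Values were computed in Python 3.11.15 with pandas 2.3.3, scipy 1.17.1 and numpy 2.4.6, and drawn with matplotlib 3.10.9. No test between conditions was possible with 1 library each. The alternatives were other limits on q, other references, shifted bins, summit distances and omission of raised input or of the centromere flanks. The chromosomes, classes and windows were chosen with earlier results of these data known.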

Additional observations from a re-analysis of the deposited data

Results flagged for a closer look

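In 3 windows of 10 Mb, density relative to the rest of the chromosome lay above 1 in both lists of one cell line and below 1 in both lists of the other, with counting intervals that exclude 1. On chromosome 4 from 40 to 50 Mb the ratio was 1.36 with anti-HA and 2.12 with anti-HOXA13 in HepG2, and 0.249 with anti-HA and 0.361 with anti-HOXA13 in Huh7. That window holds the cluster beside the centromere gap, and 43 of its 307 HepG2 anti-HOXA13 intervals had raised input. Its bin from 49 Mb held 51 of the 109 HepG2 anti-HA and 189 of the 307 HepG2 anti-HOXA13 intervals. No other bin of the window held more than 17 in either HepG2 list. The HepG2 ratios above 1 therefore rest on that bin and do not describe the window as a whole. On chromosome 13 from 20 to 30 Mb the ratio was 1.47 with anti-HA and 1.27 with anti-HOXA13 in HepG2, and 0.766 with anti-HA and 0.621 with anti-HOXA13 in Huh7. On chromosome 13 from 60 to 70 Mb the direction was the other way, with 0.292 with anti-HA and 0.572 with anti-HOXA13 in HepG2, and 2.40 with anti-HA and 2.09 with anti-HOXA13 in Huh7. With 1 library per condition the difference between the lines was not tested in any of the windows.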

How the results depend on the processing

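No paired analysis was possible because each condition has 1 library. Over 36 results and 56 alternatives, 34 values stayed within the counting interval of the reported value and 22 left it. No density ratio crossed 1. In 5 cases a value changed side relative to the other autosomes or to 1, and in all 5 the reported counting interval had held that reference. The arm ratio of chromosome 4 in HepG2 anti-HA was 0.905 (0.803 to 1.02) without 1 Mb on each side of the gap, and the median width of Huh7 anti-HOXA13 was 157 bp in both groups without raised input. The density ratio of HepG2 anti-HA was 0.685 for q of 0.05 or less, 0.667 without raised input, 0.795 against the median autosome and 0.833 against the autosomes without 2, 6, 14, 16 and 20. That of HepG2 anti-HOXA13 was 0.489, 0.746 and 0.823 for q of 0.05 or less, the median autosome and the reduced set, and that of Huh7 anti-HA was 0.612 for q of 0.05 or less and 0.780 without raised input. With strong set at −log10 q of 2 or more, the strong share in HepG2 was 44.0% with anti-HA and 3.51% with anti-HOXA13, and in Huh7 2.26% with anti-HA and 7.10% with anti-HOXA13 (6.60% on the other autosomes). Without raised input it was 0.199% in HepG2 anti-HOXA13, and the median fold of Huh7 anti-HA was 2.66. For summits within 100 bp, the overlap of HepG2 anti-HA was 2.29% with HepG2 anti-HOXA13 and 4.54% with Huh7 anti-HA, and that of Huh7 anti-HA with Huh7 anti-HOXA13 was 0.377% (0.409% on the others). Without raised input in both lists the first of these was 1.79% and the second 4.64% (3.59% on the others). Bins shifted by a part of their length put the fullest bin of HepG2 anti-HOXA13 at 146 intervals. Where the alternative itself does not give the reason, the cause was not tested. Depth limits single members, since the median summit held 7 to 14 ChIP fragments.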

Other observations

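Over the 22 autosomes, interval density and protein-coding genes per Mb correlated with r of 0.09 and rho of 0.46 in HepG2 anti-HA, r of 0.10 and rho of 0.53 in HepG2 anti-HOXA13, r of 0.28 and rho of 0.31 in Huh7 anti-HA, and r of 0.82 and rho of 0.56 in Huh7 anti-HOXA13. Without the gene-dense chromosomes 17 and 19, over 20 autosomes, r was 0.35 with anti-HA and 0.41 with anti-HOXA13 in HepG2, and 0.23 with anti-HA and 0.46 with anti-HOXA13 in Huh7. The points of a list share its library and its line's karyotype, so the coefficients are descriptions.

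On chromosomes 4, 13 and 18 strong HepG2 anti-HOXA13 intervals met a HepG2 anti-HA interval in 14 of 31 cases (45.2%, 27.3% to 64.0%), against 217 of 303 (71.6%, 66.2% to 76.6%) on the other autosomes. Of the 31, 18 lay in the 1 Mb before the chromosome 4 centromere gap, so the counting interval is too narrow. Raised input was present at 64.5% of the 31 and 79.9% of the 303, and its part in the difference was not tested. In Huh7, 0 of 22 strong anti-HOXA13 intervals on the 3 chromosomes (0% to 15.4%) met an anti-HA interval, against 3 of 244 (1.23%) on the other autosomes, and 6 of 22 (27.3%, 10.7% to 50.2%) met a HepG2 anti-HOXA13 interval, against 38 of 244 (15.6%).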
